A study of Mus musculus with 2 samples.

Results

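Eosinophil-like cells of the inflamed ear skin were single-cell barcodes with transcripts of Alox15, Ccr3, Prg2, Siglecf, Il5ra or Epx that carried few reads of the genes that define neutrophils, mast cells, basophils, macrophages and fibroblasts. A barcode entered the gate when these 6 genes together reached 400 reads per 1000000 reads of that barcode (CPM), with S100a8 plus S100a9 under 5000 CPM, Mcpt8 plus Cpa3 plus Tpsb2 under 500 CPM and C1qa plus C1qb plus Pdgfra under 500 CPM. The gate held 227 of the 8359 barcodes that had at most 20% mitochondrial reads and at least 200 genes, out of 8953 barcodes in all. Of these, 221 could be given to 1 of the 4 pools of the study, and they made up 2.95% of the 7500 assigned cells. The other 6 carried several hashtags.

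The cells came from BALB/c mice with IgE-mediated chronic allergic inflammation (IgE-CAI), either wild type (WT) or Ccr2-/-, a strain without the chemokine receptor that monocytes use to enter inflamed tissue. Sensitisation was with 300 µg of intravenous anti-TNP IgE, and the ear skin was challenged the next day with 10 µg of ovalbumin coupled to TNP, and ears were taken 3 or 5 days later. Digested skin cells were enriched on a density gradient, stained with 1 hashtag antibody for each genotype and day, mixed, and loaded (10000 cells) on BD Rhapsody, a microwell system, for TAS-Seq. Each of the 4 pools was therefore 1 sample, and values by pool are given first for WT on day 3 and day 5, then for Ccr2-/- on day 3 and day 5. The left ears of the mice received control ovalbumin without TNP, and the sources do not state whether cells of these ears entered the pools. The number of mice in a pool was not stated either, and no pool was labelled as control skin. A share by pool may therefore cover challenged skin alone or both ears.

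Eosinophils are granulocytes that mature in the bone marrow under IL-5 and enter tissue along gradients of eotaxins, which act on the receptor CCR3. They carry granules of basic proteins and ribonucleases, make lipid mediators through 15-lipoxygenase, and can release IL-4 in skin and other barrier tissues. They hold little messenger RNA and much ribonuclease, so that they are often shallow or lost in single-cell libraries.

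Ccr2, the deleted gene, stood at 346 and 339 CPM in all other cells of the WT day 3 and day 5 pools and at 12.8 and 11.7 CPM in those of the Ccr2-/- pools, lower in both pools labelled as lacking it. In the eosinophil-like cells, Ccr2 had reads in 6 of 33 and 3 of 18 members of WT day 3 and day 5 and in 2 of 74 and 5 of 96 members of Ccr2-/- day 3 and day 5. The summed levels were 405, 869, 138 and 49.6 CPM in that order, and 729, 11.8, 0 and 42.1 CPM without the 14 members of over 20000 reads.

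Positions of the marker genes are given on the mouse genome build GRCm38 with GENCODE annotation. Alox15 (chromosome 11, 70344152 to 70352031, minus strand) encodes 15-lipoxygenase, Ccr3 (chromosome 9, 124021972 to 124031689, plus strand) the eotaxin receptor, Siglecf (chromosome 7, 43351341 to 43359531, plus strand) an inhibitory sialic acid receptor, P2rx1 (chromosome 11, 72999103 to 73015200, plus strand) an ATP-gated channel and F5 (chromosome 1, 164151838 to 164220277, plus strand) coagulation factor V. Retnlg (chromosome 16, 48872621 to 48874496, plus strand), a resistin-like secreted protein of granulocytes, led the list of genes by ratio to all other cells. The 250 bases before the start of 4 of these genes are shown because GATA1, a zinc-finger factor that eosinophil development needs, binds short motifs of the kind marked here. The sequences are from RefSeq (GRCm38.p6, plus strand, read 5′ to 3′), and capitals mark AGATAA, or this motif with T in place of its first base, G in place of its last base or both, on either strand. Each of the 4 windows ended before the annotated start of its own gene, and overlap with other genes was not examined.
Ccr3, chr9:124021721-124021970: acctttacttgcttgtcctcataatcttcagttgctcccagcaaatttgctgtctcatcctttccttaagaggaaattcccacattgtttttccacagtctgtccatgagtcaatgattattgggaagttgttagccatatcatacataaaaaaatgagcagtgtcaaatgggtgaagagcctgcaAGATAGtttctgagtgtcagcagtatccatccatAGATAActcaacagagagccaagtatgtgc
Siglecf, chr7:43351091-43351340: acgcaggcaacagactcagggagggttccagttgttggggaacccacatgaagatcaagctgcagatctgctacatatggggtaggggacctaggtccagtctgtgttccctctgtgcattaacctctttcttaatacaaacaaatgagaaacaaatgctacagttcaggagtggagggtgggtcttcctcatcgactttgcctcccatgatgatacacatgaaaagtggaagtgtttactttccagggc
F5, chr1:164151585-164151834: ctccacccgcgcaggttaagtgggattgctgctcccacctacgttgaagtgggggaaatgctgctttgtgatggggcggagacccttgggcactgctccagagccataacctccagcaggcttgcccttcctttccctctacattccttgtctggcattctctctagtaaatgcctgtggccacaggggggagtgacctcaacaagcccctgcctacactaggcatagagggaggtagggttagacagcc
Retnlg, chr16:48872358-48872607: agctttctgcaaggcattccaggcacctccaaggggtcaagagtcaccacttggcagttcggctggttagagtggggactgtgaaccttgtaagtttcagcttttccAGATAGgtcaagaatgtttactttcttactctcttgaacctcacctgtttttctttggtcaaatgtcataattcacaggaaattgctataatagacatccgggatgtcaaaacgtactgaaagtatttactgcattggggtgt

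The Ccr3 window held 2 motifs and the Retnlg window held 1. Counted back from the end of the window, they began 64 and 30 bases (Ccr3) and 143 bases (Retnlg) away. Windows follow RefSeq, and that of Retnlg ended at 48872607, ahead of the GENCODE start of 48872621 given above. The Siglecf and F5 windows held 0. Of all 32851 promoter windows of this length, 26.5% held at least 1 such motif, and of the 17 windows found for 23 marker and leading genes 9 did (the 23 were chosen from their expression). A motif match is a description of these letters only. Gata1 itself had reads in 10 of the 221 members. After every cell had been thinned to 3000 reads, 4.07% of members and 0% of neutrophil-gated cells had a Gata1 read.

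The eosinophil-like cells were shallow. A member had a median of 4794 reads (3117 to 105371) and 850 genes, beside a median of 32860 reads over all assigned cells. By pool, the median was 5263 reads in the 33 members of WT day 3, 4973.5 in the 18 of WT day 5, 4707 in the 74 of Ccr2-/- day 3 and 4753 in the 96 of Ccr2-/- day 5. The median number of genes was 824, 848, 854 and 848.5 in the same order. The medians of the members thus lay close together, but their mean depth was 10776, 10099, 8319 and 7567 reads in that order, higher in both WT pools. The median of all cells of a pool ran from 18534 reads (Ccr2-/- day 5) to 46082 (WT day 5).

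A few members were far deeper than the rest. The 14 members above 20000 reads (3, 2, 4 and 5 in WT (day 3, day 5) and Ccr2-/- (day 3, day 5)) held 39.7% of all reads of the 221, and 51.4%, 53.3%, 38.7% and 31.4% of their pools' member reads. A single cell held 31.2% of the member reads of WT day 5. Summed over the 14, content differed too. In these sums, Cd74 and H2-Ab1, which serve antigen presentation, stood at 4875 and 3032 CPM, against 229 and 90.9 CPM in the other 207 members. The 14 were not alike, as Cd74 passed 1000 CPM in 5 of them and H2-Ab1 in 4. P2rx1 was at 0 in the 14 and at 438 CPM in the 207, and Retnlg stood at 91.2 against 6733 CPM. Alox15 stood at 597 against 1908 CPM. Summed levels therefore mix deep and shallower members, and the levels of the main genes are given with and without the 14. Shares of cells with a read weigh every member equally.

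**Figure D1:**
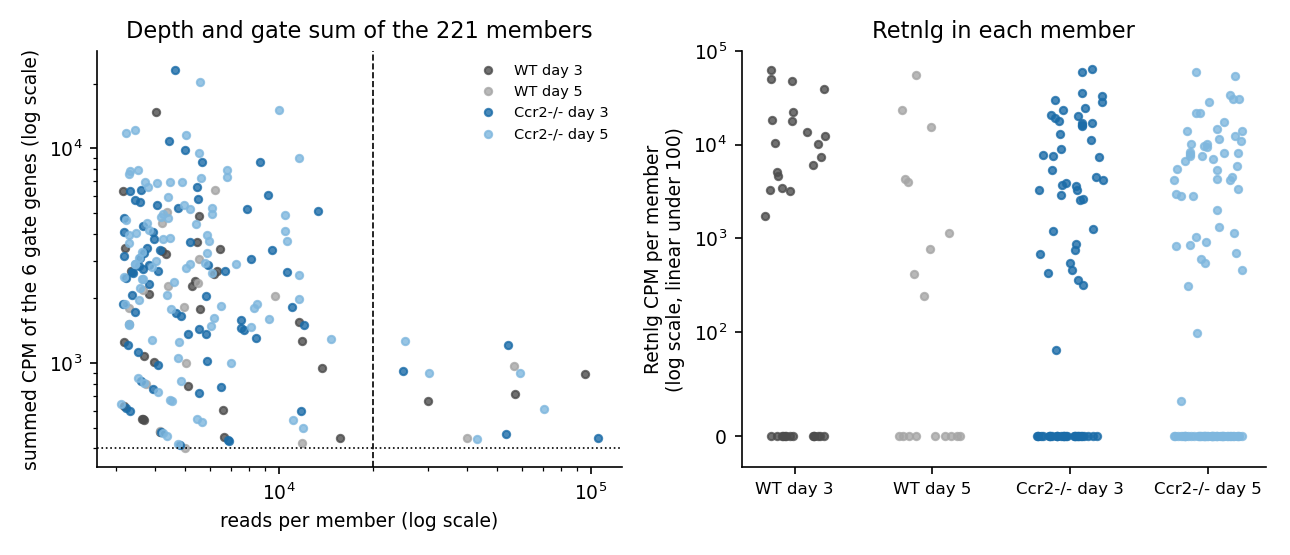
Reads, gate sum and Retnlg of the 221 eosinophil-like cells, 1 point per cell, coloured by pool. Left, summed CPM of the 6 gate genes against reads per cell (both log scales), with a dotted line at the gate minimum of 400 CPM and a dashed line at 20000 reads, above which 14 cells lie. Right, Retnlg in CPM for each cell (log scale, linear under 100), where 97 cells lie at 0.

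The gate rested on few reads in many cells. A member had a median of 13 reads of the 6 genes (2 to 150), 38 members had fewer than 5, and 15 had at most 2. Alox15 was detected in 177 of the 221 members, Ccr3 in 79, Prg2 in 60, Il5ra in 37, Siglecf in 32 and Epx in 2. For 69 members Alox15 was the only gate gene detected, 108 had Alox15 with another of the 6, 44 had no Alox15 read, and 41 had at least 3 of the 6. Just inside the threshold, among the 20 barcodes of 400 to 500 CPM, 40.0% had an F5 read and 40.0% a Retnlg read. Just outside, among the 14 barcodes of 300 to 400 CPM, 28.6% had an F5 read and 35.7% a Retnlg read. These values chose the members or border on the choice and carry no test.

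The 5 markers of the label were compared with other gated cells at equal depth. After thinning to 3000 reads, which removed 0 cells, Alox15 was read in 75.1% of members and in 0.378% of neutrophil-gated, 0.212% of macrophage-gated and 0.390% of fibroblast-gated cells, but also in 35.8% of basophil-gated cells. Ccr3 was read in 32.6% of members, 4.64% of basophil-gated and 0.189% of neutrophil-gated cells. Siglecf was read in 12.2% of members and in 3.97% and 0.568% of the same 2 gates. These 3 genes are part of the gate, so their height in the members is set by it.

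P2rx1 and F5 took no part in the gate. P2rx1 was read in 29.9% of members, in 15.2% of basophil-gated cells and in 0.0946% of neutrophil-gated cells. F5 was read in 43.0% of members against 8.51% of neutrophil-gated, 6.62% of basophil-gated, 3.4% of macrophage-gated and 0.390% of fibroblast-gated cells. For both genes the share in the members lay above that of the gates named here. Both are markers of the label, and the members were chosen with earlier results of these data known. Before thinning, the neutrophil-gated cells had medians of 8210 to 10341 reads by pool, the macrophage-gated cells 45034 to 80451 and the fibroblast-gated cells 74052 to 127941, while basophil-gated cells had 16932 to 20354 outside WT day 5, which held 1 of them. The gate is a choice made from these same cells, so the contrast is a description and was not tested.

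**Figure D2:**
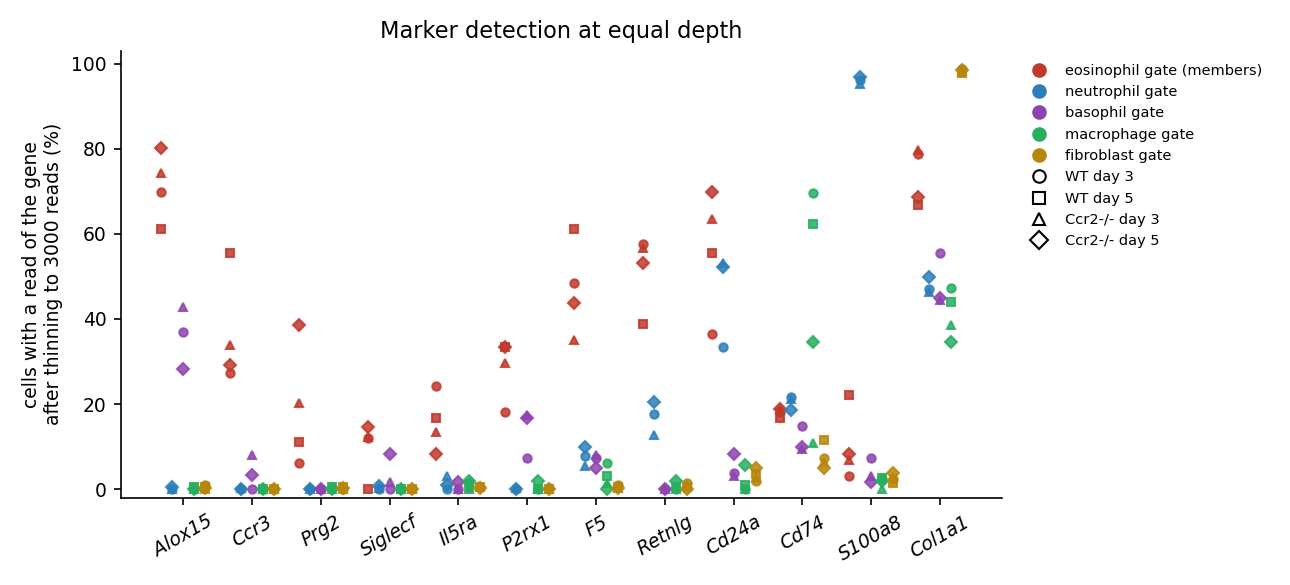
Share of cells with a read of each of 12 genes (y axis, percent) after every cell was thinned to 3000 reads, for the eosinophil gate and 4 other gates (colours) in each pool (symbols). Pools with under 10 cells of a gate are not drawn. Alox15, Ccr3, Prg2, P2rx1 and F5 are highest in the eosinophil gate, S100a8 is near 100% in the neutrophil gate only, and Col1a1 reads occur in every gate.

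Levels of the markers varied between pools. Alox15 summed to 976, 908, 1431 and 1673 CPM in the members of WT (day 3, day 5) and Ccr2-/- (day 3, day 5), and thinned shares were 69.7%, 61.1%, 74.3% and 80.2%. Both Ccr2-/- pools lay above both WT pools, also without the 14 deep members (1244, 1294, 2002 and 2172 CPM). Ccr3 summed to 211, 275, 310 and 395 CPM in the same order, and to 434, 377, 445 and 558 CPM without the 14, with thinned shares of 27.3%, 55.6%, 33.8% and 29.2%, so that the pools did not keep the same order on both measures. Siglecf stood at 104, 0, 106 and 202 CPM, and at 139, 0, 169 and 295 CPM without the 14. Its 0 of 181786 reads in WT day 5 allows up to 16.5 CPM (3 reads, counting error only).

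P2rx1 summed to 101.2, 160, 258 and 376 CPM and was read at 3000 reads in 18.2%, 33.3%, 29.7% and 33.3% of members. F5 summed to 529, 572, 404 and 559 CPM and was read in 48.5%, 61.1%, 35.1% and 43.8%. The P2rx1 sums of both Ccr2-/- pools lay above those of both WT pools, and F5 showed no such split. Without the 14 deep members, P2rx1 stood at 208, 341, 421 and 548 CPM. F5 then stood at 851, 1224, 659 and 761 CPM, with both WT pools above both Ccr2-/- pools.

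Granule proteins were unevenly detected. Prg2 (chromosome 2, 84980461 to 84983632, plus strand), the major basic protein, was read in 25.3% of thinned members and in 0.0946% of neutrophil-gated and 0% of basophil-gated cells. It summed to 30.9, 143, 271 and 457 CPM in WT (day 3, day 5) and Ccr2-/- (day 3, day 5), and the thinned share was 6.06%, 11.1%, 20.3% and 38.5%. Both measures were higher in both Ccr2-/- pools than in either WT pool, as were the levels without the deep members (63.7, 306, 410 and 666 CPM). Prg3, its homologue, was read in 13 members, all in the Ccr2-/- pools (55.2 CPM on day 3 and 109 CPM on day 5), and the 0 reads of WT day 3 and WT day 5 allow 8.44 and 16.5 CPM.

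Epx (chromosome 11, 87864000 to 87875536, minus strand), the eosinophil peroxidase, had 2 reads in all, 1 in WT day 3 and 1 in Ccr2-/- day 5. The defining peroxidase transcript was therefore near 0 in cells called eosinophil-like by Alox15 and Ccr3. The eosinophil-associated ribonucleases Ear2 and Rnase2a reached 155 and 184 CPM over all members, but 1 cell held 96.9% of the Ear2 reads and 1 cell 52.5% of the Rnase2a reads. Without the 14 deep members they stood at 6.17 and 25.6 CPM. Of the 10 granule genes listed, 4 reached 50 CPM, and 3 did without the deep members.

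Receptors for growth and survival factors were present at low levels. Il5ra (chromosome 6, 106710357 to 106749037, minus strand), the IL-5 receptor chain, was read in 13.1% of thinned members against 1.61% of neutrophil-gated cells, and its levels by pool were 92.8, 99.0, 175 and 175 CPM. With the deep members left out they were 185, 212, 286 and 191 CPM, and the genotypes then overlapped. Csf2rb, the signalling chain that IL-5, IL-3 and GM-CSF share, was read in 28.1% of members, below the 57.3% of neutrophil-gated cells. Il1rl1, the IL-33 receptor, was read in 14% of members and 2.37% of neutrophil-gated cells, and in 43.7% of basophil-gated cells. Of 24 cytokine receptors listed, 16 reached 50 CPM. In all 4 pools, 3 were higher and 3 lower than in neutrophil-gated cells, where 12.5% and 3.11% of 17483 genes were so. Such counts over all 4 pools rest in part on WT day 5, which held 4 neutrophil-gated cells. Il5ra is a gate gene.

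Of the 20 receptors of chemoattractants listed, 2 were higher than in neutrophil-gated cells in 4 of 4 pools, beside 12.5% of all genes, and 1 of these was Ccr3, a gate gene. In the other direction, 5 were lower in 4 of 4 pools, beside 3.11% of all genes. Cxcr4, the CXCL12 receptor, was read in 27.6% of members and 23.6% of neutrophil-gated cells, and Ffar2, a receptor of short-chain fatty acids, in 15.4% and 19.9%. Cxcr2, the receptor of neutrophil-attracting chemokines, was read in 11.8% against 86.9%, and Ccr1, an inflammatory chemokine receptor, in 24.0% against 76.2%. Ptgdr2, a prostaglandin D2 receptor, and Hrh4, a histamine receptor, had 0 reads in the members. These 2 were picked out after their values were seen.

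Of the 12 adhesion molecules listed, 2 were higher and 7 lower than in neutrophil-gated cells in all 4 pools. Of the 21 surface regulators, 0 were higher and 9 lower, where 12.5% and 3.11% of all genes were so. Itgam, the alpha chain of Mac-1, was read in 58.8% of members and 59.6% of neutrophil-gated cells. Itgb7, the integrin chain that pairs with Itga4, was read in 18.1% against 3.41%, and Itga4 in 19.9% against 13.4%. Adgre1, which encodes F4/80 and is found on mouse eosinophils and macrophages, was read in 39.4% of members, 48.0% of macrophage-gated and 3.5% of neutrophil-gated cells. Its level was 262, 325, 432 and 312.5 CPM in WT (day 3, day 5) and Ccr2-/- (day 3, day 5), and 475, 447, 638 and 446 CPM without the deep members. Pirb, an inhibitory receptor, was read in 35.7% of members and Clec12a, another, in 20.4%, against 32.4% and 5.68% of neutrophil-gated cells.

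Alox15 was not the only lipid mediator gene in these cells. Alox5ap, the activating protein of 5-lipoxygenase, was read in 57.0% of members (36.2% of neutrophil-gated cells), Lta4h, leukotriene A4 hydrolase, in 13.1% (1.99%), Tbxas1, thromboxane synthase, in 9.50% (1.04%) and Pla2g4a, cytosolic phospholipase A2, in 8.14% (1.89%). Ptgs2, the inducible cyclooxygenase, went the other way, with 14% of members and 68.9% of neutrophil-gated cells. Of the 12 enzymes listed, 7 reached 50 CPM. In all 4 pools, 4 were higher and 1 lower than in neutrophil-gated cells, beside 12.5% and 3.11% of all genes. Alox15, a gate gene, is on this list.

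Genes listed as purine receptors and enzymes formed a second group beside P2rx1. P2ry10, a lysophospholipid receptor listed with them, was read in 13.1% of members and 0.568% of neutrophil-gated cells. P2ry14, the UDP-glucose receptor, was read in 12.7% against 0.662%. Adora3, an adenosine receptor, was read in 8.14% against 4.26%. Entpd1, which breaks down extracellular ATP, was read in 18.1% against 35.4%. Of the 12 genes listed, 5 were higher and 1 lower in all 4 pools, beside 12.5% and 3.11% of all genes.

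Beside F5, other genes of clotting, fibrinolysis and proteolysis were read. Serpinb2, the plasminogen activator inhibitor type 2, was read in 32.6% of members and in 2.55% of neutrophil-gated, 10.6% of basophil-gated and 1.06% of macrophage-gated cells, and its level by pool was 228, 358, 387 and 706 CPM. In the shallower 207 members it was 469, 765, 628 and 1026 CPM, with WT day 5 above Ccr2-/- day 3. Adam8, a membrane protease, was read in 56.1% of members and 46.1% of neutrophil-gated cells. Mmp9, gelatinase B, was read in 11.3% of members against 54.2%. Of the 13 genes listed, 7 were higher and 3 lower than in neutrophil-gated cells in all 4 pools, beside 12.5% and 3.11% of all genes.

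Among secreted factors, Ccl6, a macrophage- and granulocyte-attracting chemokine, was read in 81.4% of members and 36.9% of neutrophil-gated cells, and summed to 1583, 2437, 2929 and 4203 CPM in WT (day 3, day 5) and Ccr2-/- (day 3, day 5). Ccl9, a related chemokine, was read in 43.4% against 5.2%. Both were also frequent in macrophage-gated cells (64.8% and 74.3%). Il1b, Cxcl2 and Il1rn, which neutrophils make in inflamed tissue, were read in 20.8%, 51.1% and 18.1% of members and in 99.0%, 96.6% and 72.8% of neutrophil-gated cells. Of the 27 factors listed, 6 were higher and 8 lower in all 4 pools, beside 12.5% and 3.11% of all genes.

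Il4, the type 2 cytokine, was read in 17.6% of thinned members, in 0% of neutrophil-gated and in 45.0% of basophil-gated cells. It was found in 6 of 33, 1 of 18, 17 of 74 and 20 of 96 members of WT (day 3, day 5) and Ccr2-/- (day 3, day 5), and summed to 115, 5.50, 190 and 387 CPM. One cell held 42.3% of all Il4 reads, and without the 14 deep members the levels were 237, 11.8, 310 and 140 CPM. The 6 defining basophil markers summed to 53.4, 121, 97.5 and 409 CPM in the members, beside 5786 to 13672 CPM in basophil-gated cells, and 0 of the 6 were at 0. Mcpt8, which the gate limited, had a read in 3 members. The part of basophil RNA in the Il4 reads was not tested.

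Of the 18 transcription factors listed, 14 reached 50 CPM over all members. Cebpe, which granule formation needs, was read in 4.98% of members and 1.23% of neutrophil-gated cells, and Id2, an inhibitor of helix-loop-helix factors, in 38.0% and 26.3%. Trib1, a regulator of eosinophil identity, was read in 43.0% of members and 70.2% of neutrophil-gated cells. Ikzf2, the factor Helios, was read in 9.50% against 0.568%. Of the 18, 5 were higher and 4 lower in all 4 pools, beside 12.5% and 3.11% of all genes.

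Inflammatory signalling genes were common. Nfkbia and Tnfaip3, feedback inhibitors of NF-κB, were read in 88.2% and 71.0% of members, Birc3 in 33.9% and Rel, an NF-κB subunit, in 23.5%, beside 92.4%, 69.7%, 31.3% and 12.5% of neutrophil-gated cells. Mcl1 and Pim1, which promote survival, were read in 82.4% and 81.0%, and Pim2, a kinase related to Pim1, in 8.14% against 0.662% of neutrophil-gated cells. Cish, a STAT5 target that restrains cytokine signals, was read in 23.1% of members and 15.2% of neutrophil-gated cells. Of 15 interferon-response genes listed, 5 were lower than in neutrophil-gated cells in all 4 pools and 0 higher, beside 3.11% and 12.5% of all genes. Among the 5 were Irf7, a regulator of the response (6.79% against 29.0%), and Ifitm3, an antiviral membrane protein (25.3% against 54.0%).

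Ratios to all other assigned cells gave the leading genes. Among 1116 genes with a read in at least 20% of members, 461 were higher in the members in all 4 pools, and the 20 with the largest ratio of mean CPM included Retnlg (111), Alox15 (95.6), Ccr3 (28.7), Cyp4f18 (25.3), F5 (25.2), Prg2 (23.0), Neurl3 (19.7), P2rx1 (18.7), Cd24a (15.2), Gadd45a (11.6), Rflnb (10.8), Dennd4a (10.4), Pglyrp1 (10.3), Ctse (9.53), Stk17b (9.50), Atp2a3 (9.47), Bcl2a1b (9.21) and Serpinb2 (8.69). Without the 14 deep members the ratios were higher for each of the 20, at 196 for Retnlg, 128 for Alox15, 43.2 for Ccr3, 44.1 for Cyp4f18, 42.3 for F5 and 36.3 for Prg2, so that Cyp4f18 passed Ccr3. The others then lay between 12.2 (Atp2a3) and 35.9 (Neurl3). Of the 20, 3 are gate genes. Cyp4f18, which inactivates leukotriene B4, had mean levels of 575 CPM in members and 638 CPM in neutrophil-gated cells. Bcl2a1b, an anti-apoptotic gene, was lower in members than in neutrophil-gated cells in all 4 pools. The list thus joins genes of eosinophils with genes that other granulocytes share.

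Retnlg was high and uneven. Its level in WT (day 3, day 5) and Ccr2-/- (day 3, day 5) members was 4086, 2415, 4159 and 4473 CPM. Without the deep members it was 8408, 5166, 6712 and 6435 CPM, with WT day 3 the highest and WT day 5 the lowest. It had a read in 124 members. Of these, 22 were under 1000 CPM, 53 lay between 1000 and 10000 CPM and 49 at 10000 CPM or more, up to 64614.5 CPM. After thinning, 53.8% of members and 18.1% of neutrophil-gated cells had a Retnlg read.

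Retnlg is also among the defining neutrophil markers, of which 11 were in the matrix. In the members, Mmp8, Ltf and Camp had 0 reads and Ly6g was read in 1 member. S100a8 and S100a9, which the gate limited, were read in 8.14% and 9.50% of thinned members against 96.3% and 99.1% of neutrophil-gated cells, and Csf3r, the receptor of granulocyte colony-stimulating factor, in 5.88% against 85.7%. The 11 markers summed to 2734 to 4884 CPM in the members by pool, nearly all of it Retnlg, and to 39510.1 to 56090.2 CPM in neutrophil-gated cells.

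Summed over the pools, members with and without Retnlg had similar shares of the markers. Among the 207 members up to 20000 reads, the 120 with a Retnlg read had a median of 4707 reads and the 87 without had 4462. At 3000 reads, Alox15 was read in 74.2% and 75.9%, Ccr3 in 33.3% and 34.5%, Prg2 in 28.3% and 24.1%, F5 in 46.7% and 43.7%, P2rx1 in 34.2% and 28.7% and Cd24a in 66.7% and 62.1%. Within the small WT pools the values lay further apart. In WT day 3 (19 members with and 11 without Retnlg) the median depth was 4168 against 6178 reads, and P2rx1 was read in 31.6% against 0%, F5 in 63.2% against 36.4% and Ccr3 in 21.1% against 45.5%. In WT day 5 (9 and 7 members), F5 was read in 55.6% against 85.7% and Ccr3 in 44.4% against 71.4%. The split uses the members' own reads and was not tested.

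Reads of genes listed as markers of other cell types were also present. Col1a1, a collagen gene of fibroblasts, was read in 73.8% of thinned members, beside 48.6% of neutrophil-gated, 46.4% of basophil-gated, 43.1% of macrophage-gated and 98.4% of fibroblast-gated cells, and the 6 fibroblast markers summed to 2683, 3686, 4699.6 and 5476 CPM in the members by pool against 54365.5 to 73332 CPM in fibroblast-gated cells. The 8 macrophage markers summed to 2499.9, 5897, 1087 and 803 CPM in the members, and to 700.2, 1412, 996 and 717 CPM without the 14 deep members, against 13070.7 to 20352 CPM in macrophage-gated cells. The 8 include Adgre1, which is also found on mouse eosinophils. Its levels, given above, were a large part of the sums without the deep members. Cd68, a lysosomal protein of macrophages, was read in 3.62% of members against 73.2% of macrophage-gated cells. None of the fibroblast or macrophage markers was at 0 over all members, and the part of RNA from other cells in the results was not tested.

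The first comparison asked whether the share of eosinophil-like cells differed between genotypes. They made up 2.05% (95% exact binomial interval 1.41 to 2.86) of the 1613 cells of WT day 3, 1.65% (0.981 to 2.60) of the 1091 of WT day 5, 3.25% (2.56 to 4.07) of the 2274 of Ccr2-/- day 3 and 3.81% (3.09 to 4.63) of the 2522 of Ccr2-/- day 5. The means were 3.53% for Ccr2-/- and 1.85% for WT, a difference of 1.68 percentage points and a ratio of 1.91. Both Ccr2-/- pools lay above both WT pools. The exact permutation test over the 4 pools (two-sided, 6 splits) gave p = 0.33, the smallest value it can give. With only cells of at least 5000 reads the difference was 0.729 points, and among leukocytes it was 3.52 points.

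Within days, the ratio of Ccr2-/- to WT was 1.59 on day 3 (difference 1.21 points) and 2.31 on day 5 (2.16 points), each from 1 pool per genotype and without a test. The pools differed in other cells as well. Neutrophil-gated cells made up 3.16%, 0.367%, 13.8% and 27.3% of WT (day 3, day 5) and Ccr2-/- (day 3, day 5). Macrophage-gated cells made up 8.12%, 20.4%, 2.86% and 2.06% in the same order, lower in both Ccr2-/- pools. A share depends on the other cells of its pool, and the part of these shifts in the genotype difference was not tested. Of the cells outside the neutrophil gate, the eosinophil-like cells were 2.11%, 1.66%, 3.77% and 5.24% in that order. Among leukocytes they were 3.28%, 2.88%, 6.80% and 6.39%. Between days, the means were 2.73% (day 5) and 2.65% (day 3), a difference of 0.0782 points (exact permutation p = 1, 6 splits), which was smaller than the gap between pools of 1 day.

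**Figure D3:**
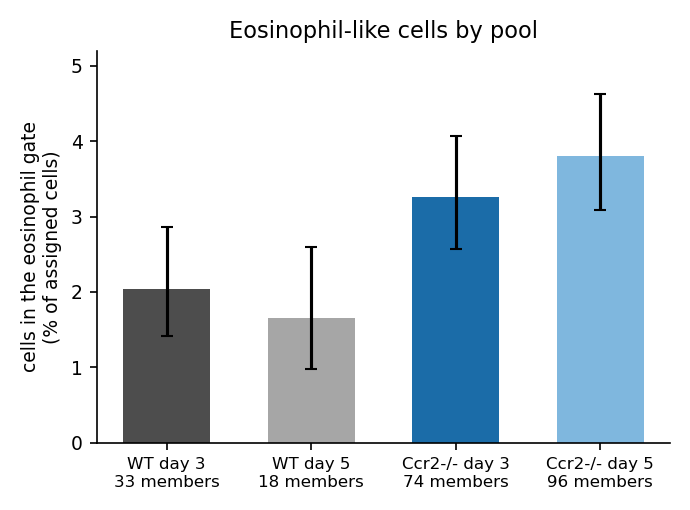
Share of assigned cells in the eosinophil gate (y axis, percent) in each of the 4 pools (bars, 1 pool each). Error bars are exact 95% binomial intervals and cover counting error only. The Ccr2-/- bars (3.25% and 3.81%) stand above the WT bars (2.05% and 1.65%).

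Gene levels within the eosinophil-like cells were compared on reads summed per pool with edgeR's quasi-likelihood test in a model of day and genotype, which leaves 1 residual degree of freedom. Of 7052 genes tested, 31 passed an adjusted p of 0.05 between genotypes (0.44% of those tested), 7 higher (0.0993%) and 24 lower (0.34%) in Ccr2-/-. The median log2 fold change of all genes tested was 0.26. The 14 deep members carried most of the reads of these genes: 26 of the 31 had over 50% of their reads there, with a median of 82.0%, and 8 had over 50% of their reads in 1 cell. Without the 14, 4676 genes were tested and 0 passed in edgeR (137 at an unadjusted p under 0.05, beside 333, or 4.72%, with all members). Of the 26 called genes that could still be tested, 15 kept their direction and 11 did not. DESeq2 on all members gave an adjusted p to 1993 genes only and called 26 of them, 24 lower in Ccr2-/-. With 1 pool left out and genotype alone in the model, the count ran from 0 (without Ccr2-/- day 5) to 281 (without WT day 5).

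Among the 24 lower genes, Ccl8, a chemokine of macrophages, stood at 1963, 4731, 554 and 162 CPM in WT (day 3, day 5) and Ccr2-/- (day 3, day 5) (log2 fold change −3.32, edgeR adjusted p = 5.19e-12). Both WT pools lay above both Ccr2-/- pools. Without the deep members Ccl8 stood at 324, 412, 869 and 221 CPM, the pools overlapped, and the log2 fold change was 0.345. Hmox1, heme oxygenase, had 76.8% of its reads in 1 WT cell.

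Others of the 24 also had most of their reads in the deep members. Cd68 fell by 4.83 on the log2 scale, Nxpe5 by 4.75, Cd83, an activation marker of dendritic cells, by 4.53, Ccl24, an eotaxin, by 4.09, Ap2a2, an endocytosis adaptor, by 3.63, Cd163, a scavenger receptor, by 3.21 and Bach1, a repressor of heme oxygenase, by 3.10, with edgeR adjusted p from 0.00665 to 0.0339. From 68.0% (Bach1) to 98.4% (Cd83) of their reads were in the deep members. Of the 8 defining macrophage markers, 5 were tested and 3 of these fell (0.34% of all genes did), with a median log2 fold change of −2.59 that became −0.20 over the 4 that could be tested without the deep members. Ccr2, the deleted gene, was among the 24 (−2.81).

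Of the 7 genes higher in Ccr2-/-, Cd24a, Klf2 and Pstpip1 had 5.35%, 12.5% and 2.92% of their reads in the deep members. Cd24a (chromosome 10, 43578284 to 43584265, plus strand), a surface sialoglycoprotein of maturing leukocytes, stood at 529, 429, 1408 and 1631 CPM in WT (day 3, day 5) and Ccr2-/- (day 3, day 5). It was read in 14 of 33, 10 of 18, 51 of 74 and 72 of 96 members, and in 36.4%, 55.6%, 63.5% and 69.8% after thinning. Both Ccr2-/- pools were above both WT pools on each measure. The log2 fold change was 1.68 (edgeR adjusted p = 0.025). With only the 207 shallower members the levels were 1088, 918, 2214 and 2192 CPM, and the log2 fold change was 1.20 (unadjusted p = 0.00531, adjusted p = 0.9998 by edgeR).

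Klf2, a factor of leukocyte quiescence and migration, stood at 391, 242, 1215 and 1178 CPM (1.97, edgeR adjusted p = 0.0126). Both Ccr2-/- pools were above both WT pools, but the thinned shares of members with a read lay close together, at 36.4%, 33.3%, 39.2% and 46.9%. Without the deep members the fold change was 1.61 (unadjusted p = 0.00505, edgeR). Pstpip1, an adaptor of the cytoskeleton, stood at 312.1, 5.50, 622 and 452 CPM (2.83, edgeR adjusted p = 0.0292), with 1 of 18 members positive in WT day 5 and 9 of 33, 29 of 74 and 38 of 96 in the others. Its thinned shares were 27.3%, 0%, 35.1% and 35.4%, and WT day 5 was the lowest pool on each measure.

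The other 4 higher genes were Fabp4, a fatty acid-binding protein, Col8a1, a collagen chain, Ccl4, an inflammatory chemokine, and Fos, an immediate-early factor. Fabp4 stood at 2.81, 11.0, 391 and 1023 CPM (6.72, edgeR adjusted p = 5.19e-12), with 74.3% of its 987 reads in 1 cell. Col8a1 stood at 22.5, 22, 95.8 and 789 CPM (3.56), with 70.5% of its reads in 1 cell. Fos stood at 2745, 1172, 5755 and 3693 CPM (1.37, edgeR adjusted p = 0.00286), and its fold change was 0.378 without the deep members. Ccl4 stood at 138, 1265, 1311 and 2230 CPM (2.02, edgeR adjusted p = 0.00251), and at 272, 2706, 2124 and 2272 CPM without the deep members, where WT day 5 was the highest pool. It was read at 3000 reads in 24.2%, 27.8%, 28.4% and 27.1% of members. The Ccl4 sums thus differed while the shares of positive members nearly matched.

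The 5 gate genes that were tested were all above 0 on the log2 scale between genotypes. Their summed CPM admitted the cells, so these values are a description and carry no test. The log2 fold change was 2.38 for Prg2 (1.93 without the deep members), 0.73 for Alox15, 0.55 for Ccr3, 0.88 for Il5ra and 2.32 for Siglecf. Outside the gate, P2rx1 had a log2 fold change of 1.30 (edgeR unadjusted p = 0.0722, adjusted p = 0.9998) and F5 of −0.20 (edgeR unadjusted p = 0.70, adjusted p = 0.9998), and neither passed.

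Between genotypes, 4182 of all 7052 genes tested were above 0 on the log2 scale, and 0.0993% were called higher and 0.34% lower. In eicosanoid enzymes 7 of 7 tested genes were above 0 with 0 called and a median of 0.73, and the granule proteins had 4 of 5 above 0, 0 called. These lists hold the gate genes Alox15 and Prg2, and the eicosanoid median is the value of Alox15 itself. They are therefore a description and carry no test. In clotting and proteolysis genes 10 of 12 were above 0, 0 were called and the median was 0.78. In NF-κB genes 4 of 14 were above 0, 0 were called and the median was −0.38, which turned to 0.11 without the deep members. The other 2 medians stayed above 0, at 0.78 for the eicosanoid enzymes and 0.85 for the clotting and proteolysis genes. Surface regulators had 1 of 18 called higher (Cd24a) and 1 lower (Fcgr2b), and transcription factors 1 of 17 called higher (Fos). Cytokines and chemokines had 1 of 20 called higher (Ccl4) and 1 lower (Ccl24), and chemoattractant receptors 1 of 12 lower (Ccr2). In the IL-4 and IL-13 response, 2 of 10 were called lower (Ccl24 and Mrc1). Without the deep members the log2 fold changes of Fcgr2b and Mrc1 were 0.606 and 1.02, and that of Ccl24 was −3.46. This Ccl24 value rested on 1 member with a read in each pool (edgeR unadjusted p = 0.107, adjusted p = 0.9998).

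Between days, 11 of the 7052 genes passed in the same fit (0.156%), 6 higher on day 5 (0.0851%) and 5 lower (0.0709%), and the median log2 fold change of all genes was −0.11. In 9 of the 11, over 50% of the reads were in the deep members, and without these 0 of 4676 genes passed in edgeR (82 at an unadjusted p under 0.05, beside 224, or 3.18%, with all members). DESeq2 called 1 gene on all members, and with 1 pool left out the count ran from 2 (without WT day 3) to 27 (without Ccr2-/- day 3). All 8 called genes that could be tested without the deep members kept their direction.

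Ccl3 and Ccl4, a pair of inflammatory chemokines, were the day 5 genes least tied to the deep members, with 21.8% and 18.3% of their reads there. However, 1 cell held 29.2% of the Ccl3 reads and 1 cell 22.7% of the Ccl4 reads. Ccl3 stood at 430 CPM in WT day 3, 929 in Ccr2-/- day 3, 1711 in WT day 5 and 3546 in Ccr2-/- day 5, so that both day 5 pools were above both day 3 pools (log2 fold change 1.97, edgeR adjusted p = 2.57e-04). Without the deep members Ccl3 stood at 880, 1501, 3648 and 3607 CPM (1.65, edgeR unadjusted p = 5.31e-04, adjusted p = 0.9998). The thinned shares of members with a Ccl3 read were 39.4%, 32.4%, 50.0% and 35.4% in that order and did not separate the days. Ccl4 had a log2 fold change of 1.96 between days (edgeR adjusted p = 0.00816), with WT day 5 (1265 CPM) below Ccr2-/- day 3 (1311 CPM). Basophil-gated cells had a Ccl3 read in 96.7% and a Ccl4 read in 94.0%, and neutrophil-gated cells in 85.4% and 73.5%, against 36.2% and 27.1% of members.

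The other 9 day genes each had over 50% of their reads in the deep members. Ccl17, a dendritic cell chemokine, had 198 reads in 2 cells, both deep and both of day 5. Mmp12, macrophage elastase, had reads in 7 members, and 55.5% of them in 1 cell. Pf4, a platelet factor also made by macrophages, and Apoe, an apolipoprotein, rose by 2.71 and 2.33 on the log2 scale (edgeR adjusted p = 0.0454 and 0.0233), with 83.8% and 73.8% of their reads in the deep members. Ctla4, an inhibitory T cell receptor, was read in 4 members, all of day 3. Ifi27l2a, an interferon-induced gene, fell by 4.84, Plvap, an endothelial gene, by 3.24, Igfbp7, a secreted binding protein, by 2.35 and Ccl2, the main ligand of CCR2, by 2.19, with edgeR adjusted p from 1.04e-04 to 0.0454. Ccl2 was read in 92 members, Apoe in 84 and Igfbp7 in 73.

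**Figure D4:**
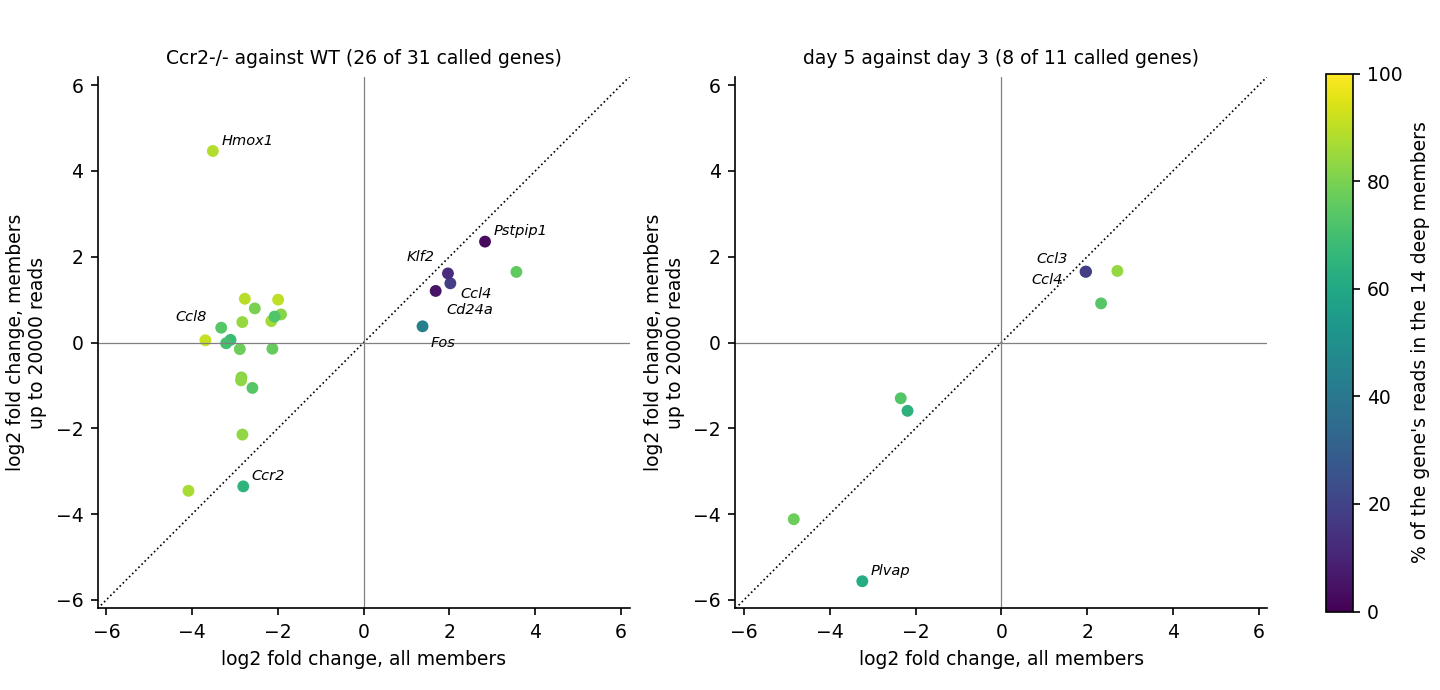
Log2 fold changes of called genes in all eosinophil-like cells (x axis) and in the 207 members up to 20000 reads (y axis), between genotypes (left, 26 of 31 genes) and days (right, 8 of 11 genes), 1 point per gene, coloured by the percent of its reads in the 14 deep members. The dotted line marks equal values. Genes lower in Ccr2-/- lie mostly near or above 0 on the y axis, while Cd24a, Klf2, Pstpip1 and Ccl3 lie near the line.

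Depth and hashtag measures were set beside those of neutrophil-gated cells of the same pool. Depth is part of the gate, since gate reads are divided by the total of the barcode: barcodes just inside the threshold (400 to 500 CPM) had a median of 6900 reads, and those just outside (300 to 400 CPM) one of 16381. Reads and genes per cell are therefore a description, with no test. The mean of the pool medians was 4924 reads in eosinophil-like and 9180 in neutrophil-gated cells, lower in 4 of 4 pools, and the means over cells were lower in 3 of 4. The median number of genes was 844 against 978, lower in 4 of 4 pools, but the mean over cells was 17.9 genes higher. The mitochondrial share was 1.46% against 0.701%, and hashtag reads were 2490 against 1358, each higher in 4 of 4 pools with medians and with means. The exact sign-flip permutation test over the 4 pools gave p = 0.13 for both, the smallest value it can give. WT day 5 held 4 neutrophil-gated cells.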

How the data were processed

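Per the labels and the methods of the study, trimming was done by the authors with Cutadapt and alignment to mouse transcripts (GRCm38.p6) with Bowtie2, followed by a modified BD Rhapsody count script. Barcodes past the inflection point of ranked read totals were retained. The deposited values are counts of reads per gene and barcode, and of reads per hashtag and barcode. PCR copies were counted separately, so exact binomial and Poisson intervals (95%) and the floor of 3 reads cover counting error only. The methods describe a background subtraction, and the sources used here do not state whether the deposited matrix had it.

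Of 8953 barcodes, 8696 had a row in the hashtag file. A barcode took the pool of the hashtag whose count, divided by that hashtag's total, was highest, if it was at least 3 times the next, and 9 further hashtag columns were not used. Barcodes with several hashtags were left out as doublets, and no expression-based caller was run. They were 2.64% of the eosinophil gate and 7.35% of barcodes within the limits. Other gates were set on S100a8 plus S100a9 (neutrophil), Mcpt8 (basophil), C1qa plus C1qb (macrophage) and Pdgfra (fibroblast). For shares of cells with a read, every cell was thinned to 3000 reads.

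Reads summed per pool were tested with edgeR 4.0.16 (quasi-likelihood, TMM, filterByExpr, Benjamini-Hochberg over all genes tested, R 4.3.3) in a model of day and genotype, and with DESeq2 1.42.0 as an alternative. With 1 pool per genotype and day, p-values measure the spread between these 4 pools, which may be technical. The edgeR fit was also run on simulated data, and the outcome, which is not reported here, is not used as support. Shares and depths were tested by exact permutation of pools (scipy 1.17.1).

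The members and gene lists were chosen with earlier results of these data known. Named were the gate and marker genes, list members of at least 50 CPM or absent markers of other cells, the 20 genes with the largest ratio to all other cells (pseudocount 10 CPM), and the 10 higher and 10 lower called genes with the largest change in each comparison. Some genes that this rule names are not reported here. Leaving out members over 20000 reads and counting cells outside the neutrophil gate were added after the data were seen. Promoter sequences are from RefSeq.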

Additional observations from a re-analysis of the deposited data

Results flagged for a closer look

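Genes of the eosinophil-like cells with opposite genotype differences on the days were sought among a preselected set only. The set held the gate and marker genes, the leading genes by ratio and the called genes with the largest changes. The leading and called genes had been chosen from these same pools, and the frequency of the pattern over all genes was not determined. In 5 genes of the set, the Ccr2-/- pool was higher than the WT pool on 1 day and lower on the other. The counting intervals of the pools did not overlap on either day. With 1 pool per genotype and day, the difference between the days was not tested.

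Neurl3, a ubiquitin ligase gene among the leading genes of these cells, stood at 366 CPM in WT and 546 CPM in Ccr2-/- members on day 3, and at 759 CPM in WT and 467 CPM in Ccr2-/- members on day 5. Pglyrp1, a peptidoglycan recognition protein of granulocytes, stood at 312.1 CPM (WT) and 201 CPM (Ccr2-/-) on day 3, and at 60.5 CPM (WT) and 176 CPM (Ccr2-/-) on day 5. Mmp12, macrophage elastase, stood at 0 CPM (WT) and 24.4 CPM (Ccr2-/-) on day 3, and at 506 CPM (WT) and 193 CPM (Ccr2-/-) on day 5. Plvap, an endothelial gene, stood at 593 CPM (WT) and 354 CPM (Ccr2-/-) on day 3, and at 5.50 CPM (WT) and 134 CPM (Ccr2-/-) on day 5. Ccl2, the main CCR2 ligand, stood at 1760.4 CPM (WT) and 609 CPM (Ccr2-/-) on day 3, and at 171 CPM (WT) and 284 CPM (Ccr2-/-) on day 5. In Mmp12, Plvap and Ccl2, 92.7%, 61.5% and 64.1% of the reads were in the 14 deep members, and without these the directions of the days were no longer opposite. Ccl2 then stood at 145 CPM (WT) and 908 CPM (Ccr2-/-) on day 3 and at 129 and 130 CPM on day 5. Plvap stood at 793 and 167 CPM on day 3 and at 11.8 and 4.01 CPM on day 5, with reads in 1 member of each WT pool. Mmp12 stood at 0 and 39.7 CPM on day 3 and at 0 and 6.02 CPM on day 5, and its WT day 5 level with all members came from 1 cell. Neurl3 kept opposite directions, with 735 and 890 CPM on day 3 and 1624 and 680 CPM on day 5. Pglyrp1 stood at 567 and 328 CPM on day 3 and at 129 and 189 CPM on day 5, where the counting intervals overlapped. In WT day 5 it had 11 reads in 2 members, 90.9% of them in 1.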

How the results depend on the processing

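The genotype difference in the share of eosinophil-like cells kept its direction under every alternative tried. Beside 1.68 percentage points, it was 0.729 with at least 5000 reads per cell, 1.16 with Alox15 out of the gate sum and 3.52 among leukocytes, and it lay between 1.41 and 1.96 when 1 pool was left out. The day difference changed sign to −0.157 points with a gate sum of at least 200 CPM, −0.0481 with at least 5000 reads per cell and −0.403 among leukocytes, and ranged from −1.0002 to 1.16 when 1 pool was left out.

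The 31 genes called between genotypes and the 11 called between days became 0 and 0 with a gate sum of at least 200 CPM, 1 and 3 with Alox15 out of the gate sum, 7 and 4 with a hashtag ratio of 2, 1 and 0 with at least 5000 reads per cell, 1 and 0 without the 3 deepest members of each pool, 0 and 0 without members over 20000 reads, 15 and 5 without a filter on low counts, and 0 and 0 in a model with the tested factor alone. The day count was 5 with at least 5 gate reads and 1 by DESeq2. With 1 pool left out and the tested factor alone in the model, the genotype count ran from 0 (without Ccr2-/- day 5) to 281 (without WT day 5) and the day count from 2 (without WT day 3) to 27 (without Ccr2-/- day 3). The lone pool of an arm was assumed to vary like the others.

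Among genes lower in Ccr2-/-, the log2 fold change turned positive without members over 20000 reads for Hmox1 (4.47), Ccl8 (0.345) and Bach1 (0.0617). Without the 3 deepest members of each pool it did so for Hmox1 (4.31), Ccl8 (0.189) and Bach1 (2.02), and with a gate sum of at least 800 CPM for Hmox1 (2.27). Genes per cell, lower than in neutrophil-gated cells by medians, turned to 17.9 higher with means. The cause of these changes was not tested. No paired analysis was possible because the labels give the pools no replicate numbers. The gene tests kept day as a term beside genotype, and depth was set side by side within pools.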
